A study of Homo sapiens with 4 samples.

Results

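The transcripts of 10 genes of the PARP and tankyrase family, PARP1, PARP2, PARP3, PARP4, PARP6, PARP8, PARP11, PARP16, TNKS and TNKS2, were followed in a human monoblastic leukaemia line given a miR-511 mimic. They were taken as every non-control probe that the array's own annotation assigns to one of these names, which gave 10 of 27193 names, 14 of 34127 probes and 23 of 43118 non-control spots. PARP1, PARP4, PARP6 and PARP11 had 2 probes each and the other 6 genes had 1. THP1, the cell line used, is an established line carrying the MLL-AF9 fusion, and all groups shared that background. The cells received 30 nM of a precursor molecule for hsa-miR-511-5p in one arm and negative control #1 in the other, were then kept in DMEM/Ham's F12 with little serum, and were harvested on day 2. Each arm was run once in each of 2 independent experiments, giving 4 single-colour whole genome arrays. An untransfected sample was not analysed here, so every difference is between miR-511 mimic and control mimic.

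PARP enzymes take ADP-ribose from NAD and attach it to proteins. Some build chains of it and others add a single unit. PARP1, PARP2 and PARP3 are activated by breaks in DNA, and the chains made by PARP1 and PARP2 bring repair factors to the lesion. The tankyrases TNKS and TNKS2 also build chains, and their substrates include the scaffold AXIN of the Wnt pathway and the telomere protein TERF1. A microRNA acts through its seed, a short stretch near its 5′ end that pairs with transcripts, usually lowering their level or translation.

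The seed of the transfected microRNA is shown first because the probe letters were searched for its complement. In the mature sequence from RefSeq (GRCh38.p14, chr10:17845122-17845142, plus strand) capitals mark the seed, bases 2 to 8.
hsa-miR-511-5p: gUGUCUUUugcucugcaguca

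The probes on which the results turn are given next, 5′ to 3′ in the sense of the transcript, with positions in hg19 as annotated in the files. For PARP1 and PARP6 both probes are printed, because the probes of each gene were read separately. Capitals mark final letters that spell a stop codon in the first PARP1 probe and the first PARP6 probe. In PARP3 they mark a match to the 6 bases complementary to seed positions 2 to 7. Reading frames of the transcripts were not consulted, so a stop codon is named here by its letters only. The PARP1 probes lie on the minus strand at chr1:226549161-226549220 and chr1:226589945-226590004.
PARP1 A_33_P3236921: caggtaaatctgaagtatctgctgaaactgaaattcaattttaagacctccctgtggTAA
PARP1 A_33_P3290338: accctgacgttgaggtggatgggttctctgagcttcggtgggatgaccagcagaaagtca
The PARP6 probes lie on the minus strand at chr15:72533796-72533855 and chr15:72550379-72550438.
PARP6 A_23_P163258: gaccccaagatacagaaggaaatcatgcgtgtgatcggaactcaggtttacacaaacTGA
PARP6 A_33_P3313302: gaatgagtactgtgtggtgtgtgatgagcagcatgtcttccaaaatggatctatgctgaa
The PARP3 probe covers chr3:51979914-51980199 and the PARP8 probe chr5:50129844-50130785, both on the plus strand. Their 60 bases span 286 and 942 bases of the genome, so each was annotated across a splice junction. PARP8 is shown as the one probe printed 10 times.
PARP3 A_24_P402779: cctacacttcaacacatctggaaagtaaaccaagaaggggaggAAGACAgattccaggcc
PARP8 A_23_P121898: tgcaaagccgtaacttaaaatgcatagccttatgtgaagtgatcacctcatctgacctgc

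The 7-base complement of the seed, AAAGACA, was in 0 of the 14 probes on the transcript strand and in 0.97% of all probes. The shorter AAGACA, which lies within it, was in the PARP3 probe alone and in 2.83% of all probes. On the opposite strand TGTCTTT was in the TNKS probe (0.973% of all probes), and TGTCTT was in that probe and in the second PARP6 probe (2.79% of all probes). A probe covers 60 bases of a transcript, so these counts describe the printed letters and leave the rest of each transcript unread.

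All 10 genes were detected in both arms. Each of the 14 probes was well above background on 4 of 4 arrays, none was saturated and none stood at a surrogate value. Per array, 64.8% to 69.3% of all probes reached that level, and 22638 probes were tested. The leukocyte identity of the RNA was checked with PTPRC, CD33, SPI1, CSF1R, CD14 and MPO, of which 10 of 10 probes were above background on all arrays. A second list had been set up as markers of other cell types. In it the CD3D probe and the PECAM1 probes were above background on all arrays. The COL1A1, EPCAM and MS4A1 probes were above it on none, and the CD3E probe on some. Not every gene of that list is absent from leukocytes, so the presence of other cells is not read from it. In bulk RNA a level per cell and a share of expressing cells cannot be told apart.

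No member passed the test for a difference between the mimics. With limma's moderated test 0 of 14 passed an unadjusted p of 0.05, against 2.2% of all tested probes. By a plain test on the array means, without moderation, 0 of 14 passed, against 3.13% of all tested probes. When limma blocked on the experiment, the members again gave 0 of 14, against 3.95% of all tested probes. The unadjusted p of the 14 probes ran from 0.415 to 0.993. After Benjamini-Hochberg adjustment over all probes each was 1.00 (limma), and no tested probe of the array passed that threshold. Estimates were positive for 7 probes and negative for 7, with a median of 0.017 on the log2 scale beside 0.0098 over all tested probes. The median size of the difference was 0.066 on the log2 scale, and 0.079 over all tested probes. Levels below are log2 intensities after quantile normalization, which can be compared between arrays for one probe but not between probes. Differences are miR-511 mimic minus control mimic on the same scale, with the standard error (SE) and 95% interval of the limma fit.

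**Figure D1:**
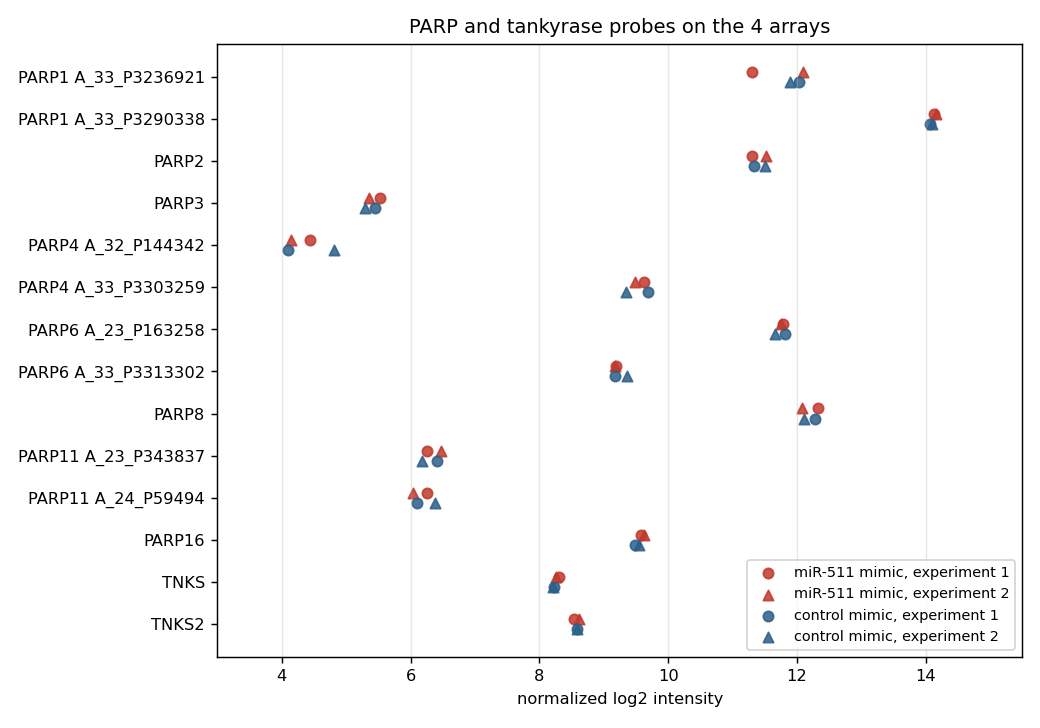
Normalized log2 intensity of each of the 14 probes (rows) on the 4 arrays, with red for miR-511 mimic, blue for control mimic, circles for experiment 1 and triangles for experiment 2. The widest rows are the PARP1 probe A_33_P3236921, whose miR-511 array of experiment 1 is at 11.30, and the PARP4 probe A_32_P144342, whose control array of experiment 2 is at 4.82. Distances between rows carry no meaning.

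PARP1, the main sensor of DNA strand breaks, gave different pictures at its 2 probes. The probe that ends at a stop codon, A_33_P3236921, read 11.30 in the miR-511 arm and 12.03 in the control arm of experiment 1, and 12.10 and 11.88 in experiment 2. The miR-511 array of experiment 1 was thus the lowest of the 4, and the miR-511 array of experiment 2 was the highest. The miR-511 array of experiment 1 also had the lowest share of all probes well above background, 64.8%. It had the most spots left out as outliers, 301. Whether this bears on the low reading was not tested. The difference was -0.73 in experiment 1, a ratio of 0.602, and 0.21 in experiment 2. A larger size of difference was seen in 3.65% of tested probes in experiment 1. Over both experiments the difference was -0.26 (SE 0.29, 95% interval -1.07 to 0.55), the largest SE among the 14 probes. The mean over experiments was 11.70 ± 0.56 (SD, n = 2) for miR-511 mimic against 11.96 ± 0.11 (SD, n = 2) for the control. Without the miR-511 array of experiment 2, this probe alone of the 14 passed the unadjusted threshold, at -0.66 (limma adjusted p = 0.487), as did 6.09% of all tested probes in that fit. Without the miR-511 array of experiment 1 the estimate turned to 0.14.

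The other PARP1 probe, A_33_P3290338, showed no such dip. It read 14.13 and 14.07 for miR-511 and control mimic in experiment 1, and 14.16 and 14.10 in experiment 2. Both miR-511 arrays lay above both control arrays, by 0.061 and 0.057. The combined difference was 0.059 (SE 0.089, 95% interval -0.19 to 0.30), so a fold change between 0.88 and 1.23 was within the interval. On the miR-511 array of experiment 1 the level of the first probe minus the second was -2.83, against -2.04 to -2.21 on the other 3 arrays. From the genes it called on these arrays, the paper selected some for quantitative PCR. The primer list it cites for them includes PARP1. The paper does not name PARP1 among the genes significantly changed in that PCR. With all arrays neither PARP1 probe passed here. The reason for the difference from the paper's array result was not tested.

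PARP2, which shares the repair function of PARP1, read 11.29 and 11.34 in experiment 1 and 11.51 and 11.51 in experiment 2 (miR-511 mimic first), at chr14:20825902-20825961. Its arrays paired by experiment rather than by mimic. The mimics differed by -0.021 (SE 0.13, 95% interval -0.38 to 0.34). PARP3, which acts in the repair of double-strand breaks, stood at 5.53 and 5.45 in experiment 1 and at 5.36 and 5.29 in experiment 2. Its miR-511 value was above the control value within each experiment, by 0.078 and 0.063, while the arms overlapped across experiments. Its difference was 0.071 (SE 0.12, 95% interval -0.26 to 0.40). This was the probe carrying the 6 bases AAGACA, and whether that match bears on its level was not tested.

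PARP4, the member that belongs to the vault ribonucleoprotein particle, had a dim probe and a brighter one. The dim probe, A_32_P144342 (chr13:24995163-24995222), holds 21.7% G and C, the lowest share of the 14 probes. It read 4.44 with miR-511 mimic and 4.10 with control mimic in experiment 1, and 4.14 and 4.82 in experiment 2. Its direction turned between experiments, from 0.34 to -0.68, and the combined value of -0.17 had a 95% interval from -0.95 to 0.60 (SE 0.28). The second probe, A_33_P3303259 (chr13:25044053-25044112), read 9.63 and 9.69 in experiment 1 and 9.48 and 9.34 in experiment 2. It moved the opposite way in each experiment, by -0.060 and 0.14, with a combined difference of 0.041 (SE 0.16, 95% interval -0.39 to 0.47).

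**Figure D2:**
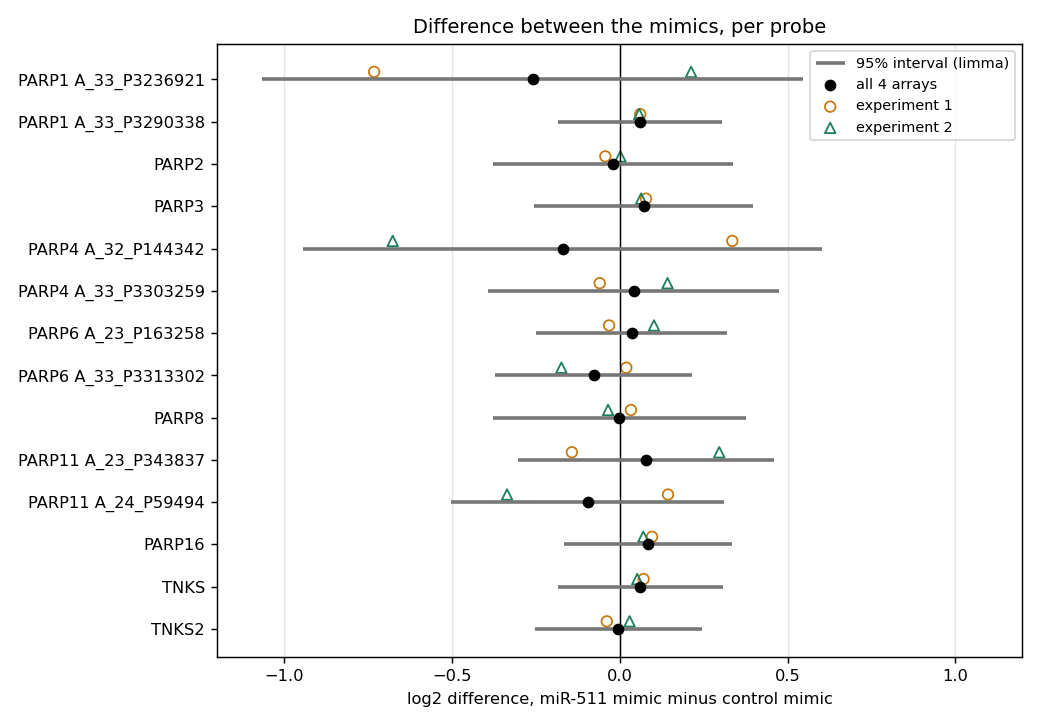
Log2 difference of miR-511 mimic minus control mimic for each probe (rows), with black points and grey bars for the estimate over 4 arrays and its 95% interval, and open circles and triangles for experiments 1 and 2. Every interval crosses 0, and the widest belong to the PARP1 probe A_33_P3236921 and the PARP4 probe A_32_P144342, whose experiments fall on opposite sides of 0.

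Of the remaining members, PARP6, PARP8, PARP11 and PARP16 are enzymes that add a single ADP-ribose. For PARP6 the probe ending in a stop codon, A_23_P163258, read 11.78 and 11.81 in experiment 1 and 11.76 and 11.66 in experiment 2 (miR-511 mimic first). The other probe, A_33_P3313302, read 9.20 and 9.18 in experiment 1 and 9.18 and 9.35 in experiment 2. The arms overlapped at both probes. The differences were 0.035 (SE 0.10, 95% interval -0.25 to 0.32) for the first and -0.078 (SE 0.11, 95% interval -0.37 to 0.22) for the second. The PARP6 transcript thus had no probe with a steady direction. The low reading of the PARP1 stop codon probe on the miR-511 array of experiment 1 was not seen at that of PARP6. It was also not seen at the TNKS probe, which read 8.30 there against 8.23 for the control. The final letters of the TNKS probe spell a stop codon too, but whether they are the stop codon of its transcript was not checked. A role of probe position was not tested.

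PARP8 was the member with a probe printed 10 times per array. The mean over its spots was 12.32 ± 0.14 (SD, n = 10 spots) with miR-511 mimic and 12.29 ± 0.095 with control mimic in experiment 1. In experiment 2 it was 12.07 ± 0.056 and 12.11 ± 0.099 (SD, n = 10 spots each). Within each experiment the arms differed by less than the spread of spots on an array, by 0.033 and -0.035. The difference over both experiments was -0.0013 (SE 0.14, 95% interval -0.38 to 0.38), the smallest of the 14. Spots of 1 array are technical copies and were averaged before the test.

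**Figure D3:**
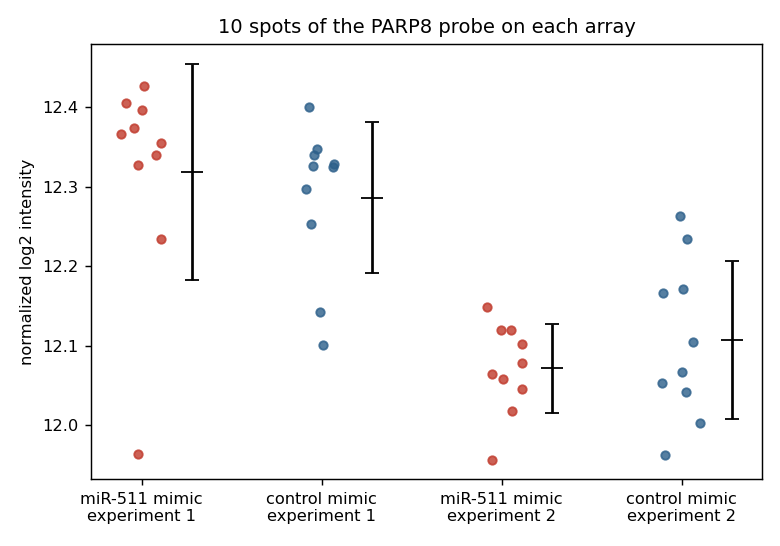
Normalized log2 intensity of the 10 spots of the PARP8 probe on each of the 4 arrays, with red for miR-511 mimic and blue for control mimic, and beside each set a bar for its mean and SD. The spots of both arms overlap within each experiment, and those of experiment 2 lie lower than most of experiment 1. One spot on the miR-511 array of experiment 1 is at 11.96, under the rest of that array.

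PARP11, a mono-ADP-ribosyltransferase of the nuclear envelope, was read by 2 probes in mirror image. At A_23_P343837 (chr12:3923212-3923271) the levels were 6.26 and 6.40 in experiment 1 and 6.47 and 6.17 in experiment 2. At A_24_P59494 (chr12:3918736-3918795) they were 6.25 and 6.10, then 6.04 and 6.38. The miR-511 array was therefore the lower one in experiment 1 at the first probe and the higher one at the second, and each relation turned in experiment 2. The combined differences were 0.076 (SE 0.14, 95% interval -0.31 to 0.46) and -0.097 (SE 0.15, 95% interval -0.50 to 0.31).

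PARP16, which sits in the membrane of the endoplasmic reticulum and takes part in the unfolded protein response, read 9.58 and 9.49 in experiment 1 and 9.62 and 9.55 in experiment 2, at chr15:65550913-65550972. Both miR-511 arrays lay above both control arrays. Its difference of 0.083 (SE 0.091, 95% interval -0.17 to 0.33) had the smallest unadjusted p of the 14 probes by limma, 0.415 (adjusted p = 1.00). The interval reached from a ratio of 0.89 to a ratio of 1.26.

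TNKS, the first tankyrase, read 8.30 and 8.23 in experiment 1 and 8.26 and 8.21 in experiment 2. The miR-511 value was higher in each, by 0.071 and 0.052, and the arms did not overlap. The difference over both was 0.061 (SE 0.089, 95% interval -0.18 to 0.31). TNKS2, its close relative, read 8.54 and 8.58 in experiment 1 and 8.61 and 8.58 in experiment 2 at chr10:93624141-93624200. Its arms overlapped and differed by -0.0051 (SE 0.091, 95% interval -0.25 to 0.24).

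The 14 probes were also counted together. The arms did not overlap at 3 probes, the second PARP1 probe, PARP16 and TNKS, all with miR-511 mimic higher, beside 15.6% of all tested probes in that direction and 25.7% in either. None of the 14 had both miR-511 arrays below both control arrays, beside 10.1% of all tested probes. For one probe with 2 arrays per mimic, the smallest p that an exact permutation test (two-sided) can give is 0.333, so this order alone could not pass a threshold. The sign was the same in both experiments at 4 probes, these 3 and PARP3, of 14, and at 51% of all tested probes.

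The scanner's own error estimate gave a second yardstick within an experiment for the 13 probes printed once. It put the error of a difference between 2 arrays at 0.20 to 0.30 on the log2 scale. In experiment 1 the PARP1 probe A_33_P3236921 alone exceeded 2 such errors, beside 6.69% of the probes printed once, and in experiment 2 the PARP4 probe A_32_P144342 alone did, beside 5.44%. Both differences were negative in the experiment where they stood out and positive in the other. All 4 genes with 2 probes had estimates of opposite sign at those probes. How often this holds over all genes with 2 probes on the array was not counted, so it is not read as a trait of these 4. The share of G and C was 36.7% in the first PARP1 probe and 55.0% in the second.

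**Figure D4:**
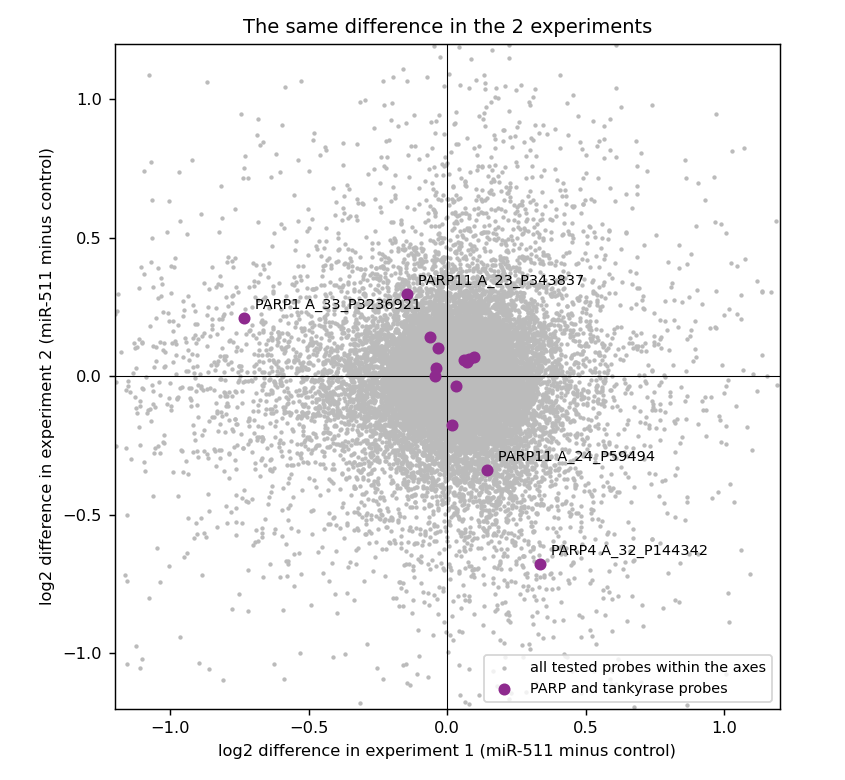
Log2 difference of miR-511 mimic minus control mimic in experiment 1 (horizontal) against experiment 2 (vertical), with the 14 PARP and tankyrase probes in purple over all tested probes in grey. Axes end at 1.2 in each direction and points outside are not drawn. The 4 named probes, of PARP1, PARP4 and PARP11, all lie in the quadrants where the experiments have opposite signs.

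The experiments also served as a comparison of their own, experiment 2 minus experiment 1 with the mimic kept as a term in limma. None of the 14 probes passed an unadjusted p of 0.05, while 11.6% of all tested probes did and 0 passed after adjustment. The smallest p belonged to PARP8, which was lower in experiment 2 with both mimics, by a difference of -0.21 (95% interval -0.47 to 0.041, limma adjusted p = 0.458). The PARP4 probe A_33_P3303259 followed, also lower with both, at -0.25 (95% interval -0.56 to 0.062, limma adjusted p = 0.462). PARP2 was higher in experiment 2 with both mimics, by 0.19 (95% interval -0.056 to 0.44, limma adjusted p = 0.468).

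Genes that work with these enzymes were counted in 5 lists, with 65 of 69 probes tested. Of 9 tested probes of other ADP-ribosyltransferases, such as PARP9, PARP10, PARP12 and PARP14, 0 passed the unadjusted threshold by limma, with a median difference of 0.023. Of 10 tested probes of enzymes that remove ADP-ribose, including PARG, the hydrolase that takes chains apart, 0 passed, with a median of -0.0075. Of 15 tested probes for the supply of NAD, the substrate, 0 passed, with a median of -0.031. Differences in that list ran from -1.54, at a probe with an SE of 1.03, to 0.093. Of 13 tested probes of single-strand break and base excision repair, including XRCC1, the scaffold brought in by PARP1, 0 passed, with a median of -0.046. Of 18 tested probes of tankyrase partners 1 passed, with a median of 0.070. Over the 5 lists 1 of 65 passed, beside 2.2% of all tested probes, and after adjustment none did.

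The probe that passed was one of the 2 for AXIN2, a scaffold that tankyrases mark for degradation and a target gene of Wnt signalling. At A_24_P298027 the levels were 4.07 with miR-511 mimic and 3.57 with control mimic in experiment 1, and 3.99 and 3.35 in experiment 2. The probe was well above background on 3 of the 4 arrays. The difference was 0.57 (SE 0.12, limma adjusted p = 1.00). It no longer passed after normexp background correction or with an intensity trend, and under the demand for a signal above background on all 4 arrays it was not tested. At the other AXIN2 probe, A_23_P148015, the levels were 3.98 and 4.07 in experiment 1 and 3.64 and 4.38 in experiment 2, with a difference of -0.42 (SE 0.18) that did not pass. It did pass the unadjusted threshold under 75th percentile scaling and without the miR-511 array of experiment 1. This second probe was well above background on 2 of the 4 arrays. Testing asked for both arrays of at least 1 mimic to be well above background. A dim probe can therefore enter the test through the arm where it reads higher. The direction of AXIN2 was opposite at its 2 dim probes, and neither direction is taken as a result.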

How the data were processed

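Total RNA of 4 THP1 cultures (2 mimics in 2 independent experiments) was labelled with Cy3 and hybridized to Agilent arrays. The deposited scanner files give a processed intensity per spot, background-subtracted by the authors' Agilent Feature Extraction software (10.7.3.1 per the file headers, 10.5.1.1 per the submitters' processing notes) and not normalized between arrays. A second deposited table, of quantile normalized log2 values, served as an alternative.

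In R 4.3.3, log2 intensities were quantile normalized with limma 3.58.1 after leaving out 232 to 301 spots per array that the scanner marked as outliers, and spots of one probe were averaged. For probes with 10 spots, a share over 0.5 of the spots had to be well above background. Probes well above background on every array of at least 1 mimic (22638) were tested with lmFit and eBayes (4.14 degrees of freedom), two-sided, at an unadjusted p of 0.05, as in the study's methods, and after Benjamini-Hochberg adjustment. A plain test on array means was an alternative. The study's further condition over identical replicate probes was not run. The small number of arrays limits the precision. All arrays lay on 1 slide.

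The labels give each array an experiment number, so the numbers pair the arrays. The deviations of same-numbered arrays from their mimic means correlated at 0.271 over probes. On simulated data for the same comparison with 22638 probes, 94 of 100 probes changed by 1.5 on the log2 scale passed the unadjusted threshold, and 60 passed after adjustment. At a change of 3, 100 and 91 of 100 passed. The simulated arrays varied independently, with no effect of the experiment. Their unchanged probes passed the unadjusted threshold at 5.02%, while 2.2% of all tested probes passed in the data. The largest member estimate was 0.26 in size, so these counts do not show what could be found at the members.

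The members and gene lists were chosen with earlier results of these data known. Every member was named with all its probes, and of the other lists any gene with a probe past the unadjusted threshold, up to 3 per list. Further genes are named only as examples or markers. The comparison of experiments and the use of the scanner error were chosen after seeing the data. All 14 member probes matched a RefSeq gene of GRCh38.p14 by accession, with the name unchanged. Where a probe lies in a transcript was not analysed here beyond its letters. Some markers of other cell types are not reported here.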

Additional observations from a re-analysis of the deposited data

How the results depend on the processing

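No member passed the unadjusted threshold under any of 9 other settings that used all arrays, and AXIN2 rested on the setting. Over all tested probes 498 passed, against 265 with normexp background correction, 1029 without a filter on dim probes, 894 with the experiment number as a replicate block, 285 with an intensity trend and 516 to 1379 without 1 array. The block, which pairs the arrays, left the members at 0 (p from 0.364 to 0.988). Pathway probes past the threshold went from 1 to 2 under 75th percentile scaling, both of AXIN2, to 0 under normexp, under a filter asking for signal on all 4 arrays and with the trend, and to between 1 and 6 without 1 array (6 without miR-511 mimic replicate 2, 3 without miR-511 mimic replicate 1 and 2 without control mimic replicate 2). Without 1 array, 0 to 1 members passed and the median of the 14 differences ran from 0.0018 to 0.048. The second PARP1 probe, PARP16 and TNKS kept their sign in all 13 alternatives, but many of these could not have turned it. The arms of these probes did not overlap, so a fit without 1 array had to keep the sign. Changing the filter, adding the block or the trend, or using the plain test left their estimates as they were. Signs turned for PARP8 under 75th percentile scaling (0.0094) and for PARP2 (0.020) and PARP3 (-0.012) under normexp. Without 1 array the other probes ran across 0: PARP1 A_33_P3236921 from -0.66 to 0.14, PARP2 from -0.13 to 0.087, PARP3 from -0.014 to 0.16, PARP4 A_32_P144342 from -0.53 to 0.19 and A_33_P3303259 from -0.13 to 0.22, PARP6 A_23_P163258 from -0.043 to 0.11 and A_33_P3313302 from -0.17 to 0.0097, PARP8 from -0.12 to 0.12, PARP11 A_23_P343837 from -0.038 to 0.19 and A_24_P59494 from -0.23 to 0.041, and TNKS2 from -0.038 to 0.028. In these fits the lone array was assumed to vary like the other mimic's. The cause of these moves was not tested. A slide block was not run, as all arrays shared 1 slide. The 95% intervals of the members reach a log2 difference of -1.07 for PARP1, and -1.17 with the block.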
